A study of Macaca fascicularis with 64 samples.

Results

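The 6 genes described here, TAS1R3, FFAR1, FFAR4, GPR119, GPR142 and CASR, code for receptors through which islet cells sense nutrients, and they make up 6 of the 21041 macaque genes counted in the files. They were named as a list and were followed across the 4 hormone-producing cell types, where a cell was chosen as an α-, β-, δ- or PP-cell by the highest of its counts for GCG, INS, SST and PPY. These 4 hormone counts therefore define the types and are not results. Single islet cells came from the pancreas of 16 cynomolgus monkeys without diabetes, 8 of them young and 8 old, with 4 animals of each sex in either age group. Each monkey gave 4 libraries, 64 in all, and 5908 of 6141 barcodes passed the limits of over 800 genes and over 10000 unique molecular identifiers (UMIs, each counting 1 captured RNA molecule). Cells were picked by hand and the monkeys were kept as separate samples, so the monkey is the replicate throughout.

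Islet hormone cells respond to more than glucose. CASR binds extracellular calcium and is tuned by aromatic amino acids, GPR142 is activated by tryptophan and related amino acids, and TAS1R3 is the shared subunit of the sweet and umami taste receptors. FFAR1 (also called GPR40) and FFAR4 (GPR120) bind medium- and long-chain fatty acids, and GPR119 binds lipid amides and monoacylglycerols. GPR119 acts mainly through Gs and cyclic AMP, FFAR1 mainly through Gq and intracellular calcium, and the taste receptors through a G protein of the gustducin class that ends on the channel TRPM5. No sequence or coordinate is given, because no genome of the build used for the counts was at hand.

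By hormone, 4503 cells were α-cells (76.2%), 1219 were β-cells (20.6%), 112 were δ-cells (1.90%) and 74 were PP-cells (1.25%). All 16 monkeys had at least 5 α-cells and at least 5 β-cells, 11 had at least 5 δ-cells (7 young, 4 old) and 6 had at least 5 PP-cells (2 young males, and 2 females and 2 males among the old). Levels are given as CPM, the UMIs of a gene scaled to the macaque UMIs in the sum of all cells that a monkey had of a type. Such a sum held 14089079 to 27439498 UMIs in α-cells, 622124 to 19086370 in β-cells, 206257 to 706643 in δ-cells and 208618 to 1498899 in PP-cells, so a low level is known least well in the last 2 types. The hormone that defined a cell was at its median 14.3 times the next hormone in α-cells but 3.29 times in β-cells, 3.18 times in δ-cells and 2.78 times in PP-cells. GCG in β-cells pooled was 25.2% of its α-cell level and INS in α-cells was 11.3% of its β-cell level. The β-cell genes IAPP, SLC2A2 and MAFA stood in α-cells at 1.82%, 1.35% and 4.67% of their β-cell levels. Types could hold mixed cells and free RNA, whose part in the levels was not tested. Markers of exocrine acinar cells summed to between 68.4 and 1116 CPM in the δ-cells of a monkey, and CPB1 alone, a carboxypeptidase, gave 95.2% of these UMIs in δ-cells pooled. Apart from these sums, a cell was marked as non-endocrine if at least 3 markers of 1 class each reached 50 CPM. By that rule 262 cells were marked, 239 of them α-cells and 3 of them δ-cells. Of the 262, 187 came from young female 2, where 181 of 362 α-cells were so marked.

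**Figure D1:**
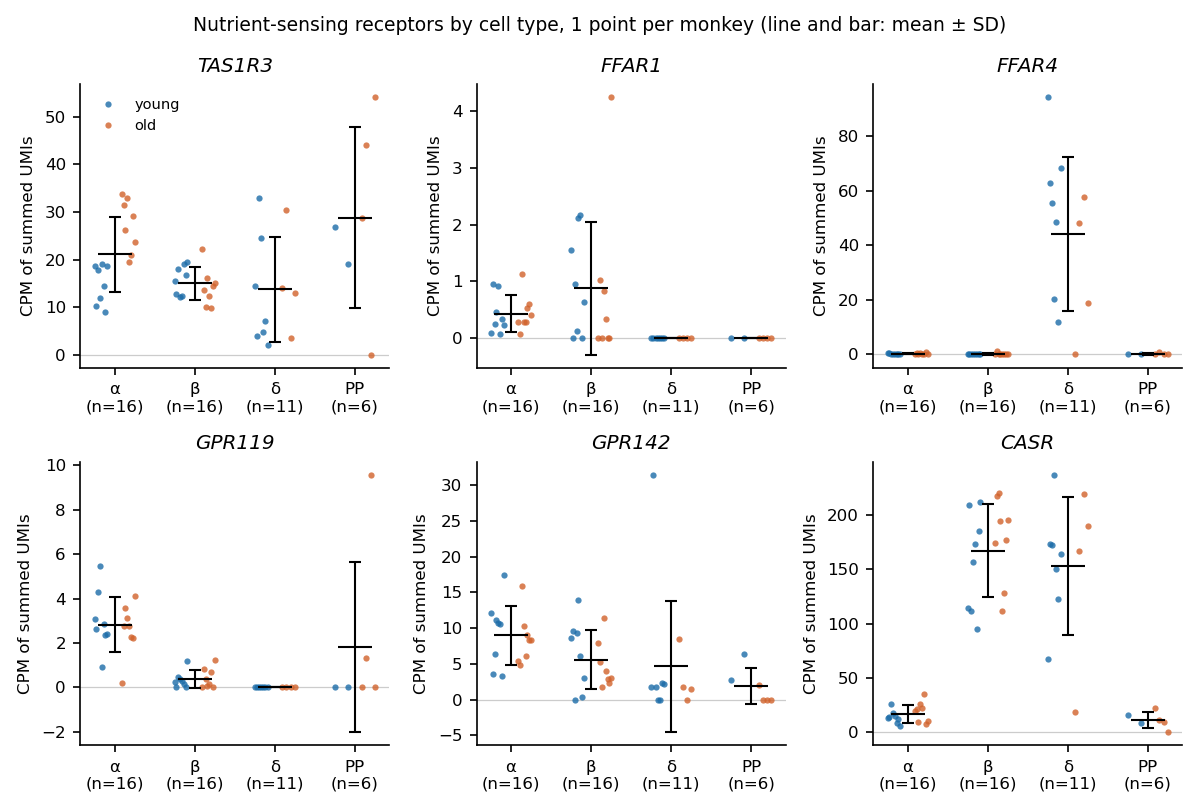
CPM (y axis) of each of the 6 receptor genes in α-, β-, δ- and PP-cells (x axis), 1 point per monkey with at least 5 cells of the type, young in blue and old in orange, with the mean and SD over monkeys as a line and bar. CASR stood at 95.2 to 221 CPM in β-cells against 5.46 to 35.3 in α-cells, FFAR4 was high in δ-cells alone among the types shown (median 48.5 CPM), and GPR119 was highest by median in α-cells (2.77 CPM).

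Of the calcium and amino acid sensors, CASR separated the types most clearly. In β-cells it ranged over the 16 monkeys from 95.2 to 221 CPM with a median of 176, and in α-cells from 5.46 to 35.3 with a median of 14.5. The lowest β-cell value lay above the highest α-cell value, and β-cells were higher in 16 of 16 monkeys. How many of all genes kept 2 types apart in this way was not counted, for this or any other pair of types. With the monkey as a block in a fit of all 12895 genes tested, CASR was higher in β-cells by 3.45 on the log2 scale (SE 0.26, edgeR quasi-likelihood test, Benjamini-Hochberg adjusted p = 1.06e-15), a fold of 10.9. In that contrast 2 of the 5 receptors that passed the filter on low counts were called, CASR higher and GPR119 lower, where 25% of all genes tested were called.

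In δ-cells CASR ranged from 18.4 to 237 CPM over 11 monkeys, with a median of 167. It was above the α-cell value of the same monkey in 10 of 11 monkeys, the exception being old female 1, whose 7 δ-cells gave the 18.4 CPM. CASR was higher in δ-cells than in α-cells by 3.09 on the log2 scale (SE 0.29, edgeR adjusted p = 2.07e-12). Between δ- and β-cells the difference was -0.36 (SE 0.29, adjusted p = 0.404), and the ranges overlapped. Among 5 receptors tested, 3 were called between δ- and α-cells (CASR and FFAR4 higher, GPR119 lower), where 23.2% of all genes tested were called, and 1 was called between δ- and β-cells (FFAR4), where 19.8% were called. These δ-cells held acinar markers, mostly CPB1, at the levels given above. Without the cells that carried non-endocrine markers the δ- to α-cell difference of CASR was 3.11. That setting removed only 3 of the 112 δ-cells, because a cell with CPB1 alone was not marked. The part of CPB1-bearing cells in the difference was therefore not tested.

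PP-cells had low CASR, from 0 to 22.6 CPM in 6 monkeys with a median of 10.5, which overlapped the α-cells. The log2 difference from α-cells was -0.40 (SE 0.44, edgeR adjusted p = 0.633), and no receptor was called in that contrast, where 6.58% of all genes tested were called. Against β-cells CASR fell by 3.85 in PP-cells (SE 0.46, adjusted p = 9.72e-09), with no overlap of the ranges, and it was the 1 receptor called where 17.2% of genes were. Against δ-cells it fell by 3.49 (SE 0.48, adjusted p = 6.41e-07), and it was 1 of 2 receptors called, beside FFAR4, where 10.3% of genes were.

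The share of cells with a CASR UMI gave the same order of the high and low types. It was 82.9% in β-cells (1010 of 1219 cells, 95% Clopper-Pearson interval 80.6 to 84.9%) and 58.9% in δ-cells (66 of 112 cells, 49.2 to 68.1%), against 34.8% in α-cells and 32.4% in PP-cells. These intervals, like all below, cover counting error only. Since types differed in depth (median 74425 UMIs per β-cell, 64894 per α-cell, 45773 per PP-cell and 43776 per δ-cell), each cell was also thinned to 10000 UMIs, which left out 39 α-cells and 6 β-cells. The thinned shares were 58.1% in β-cells, 43.8% in δ-cells, 11.4% in α-cells and 9.46% in PP-cells. The 87 α-cells whose GCG was under 2 times the next hormone held CASR at 58.2 CPM, and the 1639 α-cells with a ratio of 20 or more held 13.4 CPM, which is a description, since these classes were cut by the hormones that chose the types. How much of the CASR counted in α-cells came from α-cells themselves was not tested.

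**Figure D2:**
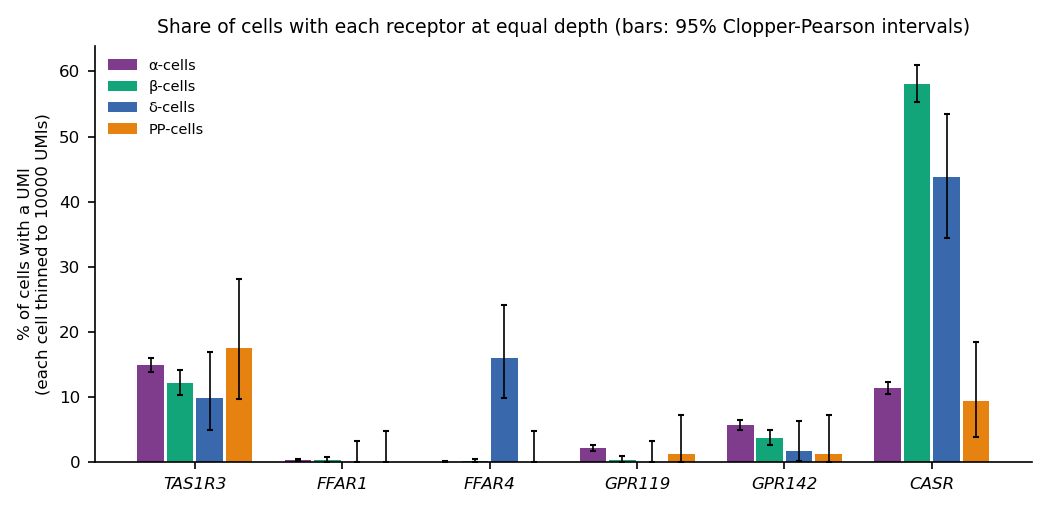
Percentage of cells with at least 1 UMI of each receptor (y axis) in α-, β-, δ- and PP-cells after each cell was thinned to 10000 UMIs, with 95% Clopper-Pearson intervals as bars over all cells of a type. CASR reached 58.1% of β-cells and 43.8% of δ-cells, FFAR4 16.1% of δ-cells, and TAS1R3 between 9.82% and 17.6% of the cells of every type.

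By age CASR did not pass the test in α-, β- or δ-cells, and in PP-cells it did not pass the filter on low counts and was not tested. In α-cells it was 13.9 ± 6.10 CPM in young monkeys and 18.9 ± 9.57 in old monkeys (SD, n = 8 each), a log2 difference of 0.50 (SE 0.34, edgeR adjusted p = 0.831). In β-cells it was 157 ± 45.5 CPM in young and 178 ± 39.5 in old monkeys (SD, n = 8 each), a difference of 0.16 (SE 0.19, adjusted p = 0.996). In δ-cells the young monkeys ranged from 67.1 to 237 CPM with a median of 164, and the 4 old monkeys had 18.4, 167, 190 and 220 CPM. Young and old overlapped in each of these types. They also overlapped in PP-cells, where the means were 12.3 CPM in 2 young and 10.9 CPM in 4 old monkeys.

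GPR142, the tryptophan receptor, was found at low levels in all 4 types. It ranged from 3.26 to 17.5 CPM in the α-cells of 16 monkeys (median 8.75), from 0 to 13.9 in β-cells (median 4.68), from 0 to 31.5 in δ-cells of 11 monkeys (median 1.79) and from 0 to 6.38 in PP-cells of 6 monkeys (median 1.03). The ranges overlapped, although the PP-cell value was below the α-cell value of the same monkey in 6 of 6 monkeys. The log2 differences from α-cells were -0.98 in β-cells (SE 0.46, edgeR adjusted p = 0.123), -1.52 in δ-cells (SE 0.66, adjusted p = 0.0875) and -2.72 in PP-cells (SE 0.93, adjusted p = 0.0646). None of the 3 passed the threshold in this test, and all 3 passed it under at least 1 other setting, where the adjusted p was 0.0332 for β-cells with DESeq2, 0.0246 for δ-cells without young female 2 and 0.0369 for PP-cells with DESeq2. The highest δ-cell value, 31.5 CPM, came from 8 UMIs in 6 cells of young female 2.

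A UMI of GPR142 was seen in 13.2% of α-cells, 12.5% of β-cells, 8.04% of δ-cells and 4.05% of PP-cells. Its UMIs were gathered in few cells, since the top 1% of cells held 31.4% of them in α-cells and 36.6% in β-cells. By age the log2 difference was -0.13 in α-cells (SE 0.34, edgeR adjusted p = 0.956) and -0.47 in β-cells (SE 0.66, adjusted p = 1.00). In PP-cells the 2 young monkeys had 2.69 and 6.38 CPM and the 4 old monkeys had 0, 0, 0 and 2.06 CPM. Those groups did not overlap, but all 5 PP-cell UMIs of the gene stood behind them, and the exact permutation p of 0.0667 is the smallest that 15 arrangements of 6 monkeys can give. How many of all genes kept the 2 young and 4 old monkeys apart in this way was not counted.

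TAS1R3 in α-cells gave the smallest edgeR p of any receptor tested by age. In α-cells it ranged from 9.05 to 19.1 CPM in the 8 young monkeys with a median of 16.1, and from 19.5 to 33.9 CPM in the 8 old monkeys with a median of 27.8. Every old monkey was above every young monkey, though the highest young and the lowest old value lay close together. The means were 15.0 ± 4.13 CPM in young and 27.3 ± 5.53 in old monkeys (SD, n = 8 each), a log2 difference of 0.83 (SE 0.18). In the fit of 13482 genes its unadjusted p was 0.000169, rank 4 of all genes, and its edgeR adjusted p was 0.401, so it did not pass. No gene passed in that fit, and the share of genes called was 0%, while 920 genes had an unadjusted p under 0.05. DESeq2 called 26 genes, among them TAS1R3 (log2 difference 0.83, adjusted p = 0.0187), and over the settings other than the leaving out of monkeys the adjusted p ranged from 0.0187 to 0.501.

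The exact two-sided permutation test over the 16 monkeys gave p = 0.000155 for the difference in mean CPM of TAS1R3 in α-cells, the smallest that 12870 arrangements can give, in a family of 21 comparisons of a receptor by age within a type. Only 2 of 13482 genes, 0.0148%, had young and old α-cell values that did not overlap. The other was MVP, the major vault protein, named here because of these values, at 21.1 to 36.1 CPM in young and 36.1 to 56.6 in old monkeys. By library, TAS1R3 was above the median of the 32 young libraries (15.9 CPM) in 28 of the 32 old libraries, whose median was 26.0 CPM. After thinning to 10000 UMIs a TAS1R3 UMI was seen in 11.9 ± 3.27% of α-cells of young and 18.4 ± 3.51% of old monkeys (SD, n = 8 each, exact permutation p = 0.00249 in a family of 20 comparisons). The count was spread unevenly over cells. The highest α-cell held 134 of the 6654 TAS1R3 UMIs in α-cells, and the top 1% of cells held 16.3% of them in young and 19.5% in old monkeys.

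**Figure D3:**
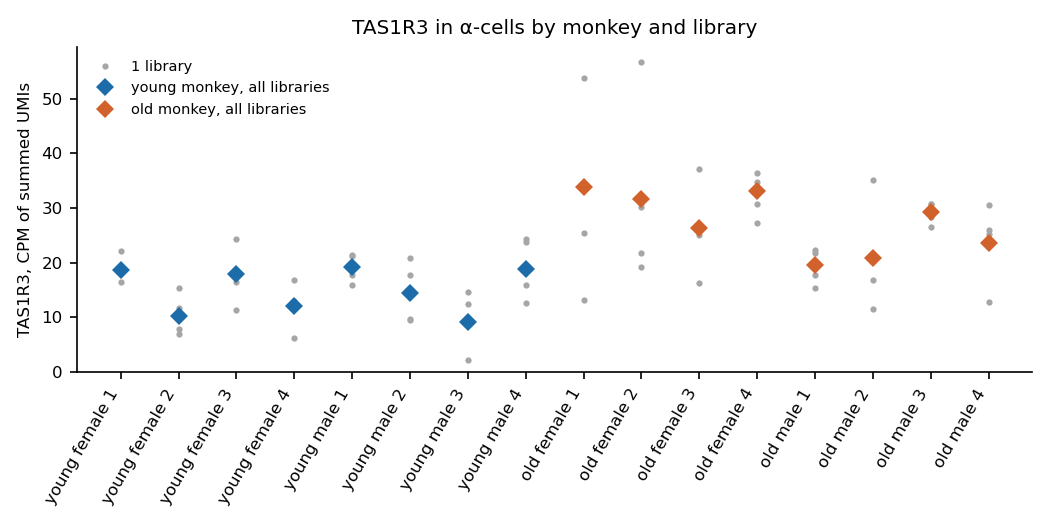
TAS1R3 level in CPM (y axis) in the α-cells of each of the 16 monkeys (x axis), where a diamond is the sum over all libraries of a monkey (young in blue, old in orange) and a grey point is 1 library. The old monkeys sit between 19.5 and 33.9 CPM and the young between 9.05 and 19.1, and single libraries of both groups overlap.

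Other measures of the same α-cells were also compared by age, with no adjustment for their number. Ductal markers (6 of 6 listed genes in the files, none at 0 throughout) had the smallest exact permutation p among them (0.0463). They summed to 12.9 to 59.0 CPM in young and 3.93 to 85.6 CPM in old monkeys, with medians of 27.7 and 59.4. In edgeR 0 of 4 ductal genes tested were called by age, with a median log2 difference of 0.03. The part of ductal markers in the TAS1R3 difference was not tested. Acinar markers summed to 2.40 to 2538 CPM in young (median 6.84) and 1.53 to 52.3 in old monkeys (median 2.67, exact permutation p = 0.202), the highest being that of young female 2, whose TAS1R3 level was 10.3 CPM. Without young female 2 the TAS1R3 difference was 0.76 on the log2 scale (edgeR adjusted p = 0.744), and without the cells that carried non-endocrine markers it was 0.81 (adjusted p = 0.406). For the median number of UMIs per α-cell the exact permutation p was 0.942. In the RefSeq annotation of another cynomolgus assembly (T2T-MFA8v1.1), TAS1R3 overlaps its neighbour DVL1, a Wnt pathway gene that most tissues express, and CPTP, a lipid transfer protein gene, is next on the other side. None of the other 5 receptor genes overlaps a neighbour there. DVL1 was nearly absent from the counts, at 0 to 0.848 CPM in young and 0 to 0.902 CPM in old α-cells, and CPTP had medians of 4.25 CPM in young and 7.39 in old α-cells (log2 difference 0.93, SE 0.34, edgeR adjusted p = 0.707). The strand setting of the counting is not given in the sources used here, so reads of TAS1R3 and of overlapping DVL1 transcripts cannot be told apart in any type.

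Outside α-cells the age difference of TAS1R3 was small beside its error. In β-cells it was 15.8 ± 3.06 CPM in young and 14.2 ± 3.96 in old monkeys (SD, n = 8 each), a log2 difference of -0.17 (SE 0.30, edgeR adjusted p = 1.00). Of the receptors, only TAS1R3, GPR142 and CASR passed the filter on low counts by age in β-cells. None of them was called, where 0.0451% of the 11097 genes tested were. Those were the 5 genes IGFBP4, SERPINA1, CHGB and KIF26A, higher in old monkeys, and ENSMFAG00000003105, lower, which are named here because of these values. The difference of the age effects itself, β- minus α-cells, was -1.03 for TAS1R3 (SE 0.31, unadjusted p = 0.00264, edgeR adjusted p = 0.604), and no gene of 12133 passed in that fit (0%, 762 genes at an unadjusted p under 0.05). Over other settings its adjusted p ran from 0.0933 to 1.00.

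In δ-cells TAS1R3 ranged from 2.13 to 33.0 CPM in the 7 young monkeys, and the 4 old monkeys had 3.60, 13.0, 14.2 and 30.5 CPM. In PP-cells the 2 young monkeys had 19.1 and 26.9 CPM and the 4 old monkeys had 0, 28.8, 44.0 and 54.1 CPM. Both sets overlapped, and no receptor was called by age in δ-cells (0% of 7401 genes tested, 286 at an unadjusted p under 0.05) or in PP-cells (0% of 6564, 390 at an unadjusted p under 0.05). Of the receptors, only TAS1R3, FFAR4 and CASR were tested by age in δ-cells, and only TAS1R3 in PP-cells. The others did not pass the filter on low counts there. With DESeq2, 3 and 1 genes were called in these types, and no receptor was among them. Across types TAS1R3 had medians of 19.3 CPM in α-, 14.8 in β-, 13.0 in δ- and 27.8 in PP-cells, and no pair of types passed the edgeR test with the monkey as a block. The pair with the largest difference was PP- against δ-cells (log2 difference 1.17, SE 0.53, adjusted p = 0.148). Next came δ- against α-cells (-0.84, SE 0.41, adjusted p = 0.133) and PP- against β-cells (0.77, adjusted p = 0.282). With DESeq2, PP- against δ-cells and PP- against β-cells passed (1.08, adjusted p = 0.0467, and 1.02, adjusted p = 0.0235). Both also passed in edgeR without the block (1.21, adjusted p = 0.0464, and 1.03, adjusted p = 0.0482).

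No receptor tested differed in its age effect between the sexes by the same test. FFAR4 was not tested in either type, and FFAR1 and GPR119 were not tested in β-cells. For TAS1R3 in α-cells the interaction was -0.47 (SE 0.34, edgeR adjusted p = 0.909), and for CASR in β-cells it was -0.52 (SE 0.38, adjusted p = 1.00). In α-cells 0.00707% of 14142 genes passed, which was the 1 gene CACNA1F, also named because of its value, and in β-cells 0% of 11689 passed, with 493 at an unadjusted p under 0.05 and 2 called by DESeq2.

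Of the lipid sensors, FFAR4 marked out the δ-cells. In δ-cells of 11 monkeys it ranged from 0 to 94.3 CPM with a median of 48.5. In α-cells it stayed at 0 to 0.721 CPM with 8 of 16 monkeys at 0, in β-cells at 0 to 1.23 with 14 of 16 at 0, and PP-cells gave 1 UMI in all. FFAR4 was higher in δ-cells than in α-cells and in β-cells in 10 of 11 monkeys, and the remaining one, old female 1, had 0 in 7 δ-cells. On the log2 scale the δ-cell level was higher by 8.72 than in α-cells (SE 0.80, edgeR adjusted p = 5.57e-12) and by 9.70 than in β-cells (SE 0.86, adjusted p = 2.26e-12). FFAR4 entered this fit of the 4 types only through the δ-cells, since too few sums of the other types reached the filter on low counts. With no filter these differences were 8.69 (edgeR adjusted p = 5.40e-13) and 9.69 (adjusted p = 1.90e-13). The ratio of pooled CPM was 249 to α-cells (95% interval 183 to 343, from 219 and 52 UMIs) and 584 to β-cells (279 to 1469, from 219 and 7 UMIs). Against PP-cells the ratio of pooled CPM was 154, with a counting interval of 27.4 to 6115 that reflects the single PP-cell UMI (edgeR adjusted p = 2.08e-04).

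A part of the δ-cells carried the FFAR4 count. A UMI was seen in 28.6% of them (32 of 112, 95% Clopper-Pearson interval 20.4 to 37.9%) against 0.378% of α-cells, 0.410% of β-cells and 1.35% of PP-cells. At 10000 UMIs per cell the δ-cell share was 16.1%. FFAR4 in α-cells was 0.402% of its pooled δ-cell level. Without cells of non-endocrine markers, which removed only 3 of the 112 δ-cells and none for CPB1 alone, the δ- to α-cell difference was 8.98 on the log2 scale. Of the 66 δ-cells with a CASR UMI 34.8% also had an FFAR4 UMI, against 19.6% of the 46 without, but the cells with CASR were also deeper (medians 47680 and 35022 UMIs).

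By age, FFAR4 in δ-cells ranged from 11.8 to 94.3 CPM in the 7 young monkeys with a median of 55.6, and the 4 old monkeys had 0, 18.8, 48.4 and 57.6 CPM. The groups overlapped. The log2 difference was -0.87 (SE 1.03, edgeR adjusted p = 1.00), and the exact permutation p was 0.252 (n = 7 and 4).

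GPR119 was found mostly in α-cells. It ranged from 0.213 to 5.46 CPM in α-cells with a median of 2.77 and from 0 to 1.21 CPM in β-cells, and α-cells were higher in 16 of 16 monkeys although the ranges overlapped. It fell by 3.20 on the log2 scale in β-cells (SE 0.56, edgeR adjusted p = 2.00e-05), a fold of 9.16. GPR119 entered this fit only through the α-cells, since too few sums of the other types reached the filter on low counts. With no filter the log2 difference was -3.23 (edgeR adjusted p = 2.47e-05). No GPR119 UMI was counted in 112 δ-cells, so that α-cells, at 2.98 CPM pooled, were at least 5.43-fold higher than the level that 3 counts over all δ-cells would give (edgeR adjusted p = 0.000669). PP-cells had 4 UMIs in 74 cells, and 9.59 CPM in old male 2 came from 2 of these. A UMI was seen in 6.73% of α-cells (303 of 4503), 1.31% of β-cells and 4.05% of PP-cells, and in 2.22% of α-cells at 10000 UMIs. GPR119 in α-cells had 0.910 to 5.46 CPM in young (median 2.74) and 0.213 to 4.12 in old monkeys (median 2.77), a log2 difference of -0.14 (SE 0.47, edgeR adjusted p = 0.967). Beside 6.98% and 8.45% for the α-cell genes TSPAN12 and IRX2, GPR119 stood in β-cells at 10.5% of its pooled α-cell level.

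FFAR1 was close to the limit of detection. The files held 219 of its UMIs in retained cells, 146 in α-cells and 73 in β-cells, and none in δ- and PP-cells, which by the floor of 3 counts allows a share of cells with a UMI of up to 2.68% of 112 δ-cells and 4.05% of 74 PP-cells (upper 95% Clopper-Pearson limits 3.24% and 4.86%). It ranged from 0.0646 to 1.13 CPM in α-cells (median 0.311) and from 0 to 4.24 CPM in β-cells (median 0.489, 6 of 16 monkeys at 0), and these ranges overlapped. A UMI was seen in 1.13% of α-cells and 1.80% of β-cells, and the top 1% of α-cells held 95.9% of the α-cell UMIs. FFAR1 did not pass the filter on low counts in the comparisons of types or of age. In α-cells it was 0.415 ± 0.346 CPM in young and 0.445 ± 0.322 in old monkeys (SD, n = 8 each, exact permutation p = 0.863), and in β-cells 0.945 ± 0.909 and 0.804 ± 1.45 (SD, n = 8 each, exact permutation p = 0.850). With no filter the log2 difference by age was 0.10 in α-cells (SE 0.76, edgeR adjusted p = 0.986) and -0.46 in β-cells (SE 1.13, adjusted p = 0.965).

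The genes through which these receptors signal were read from 7 lists. Over all 12895 genes tested between β- and α-cells, 8.65% were called higher and 16.3% lower in β-cells, to be read beside each list. Between β- and α-cells, 5 of 5 tested genes of taste transduction were called, 2 higher and 3 lower in β-cells, with a median log2 difference of -1.37 against -0.11 over all genes. GNAT3, the gustducin α subunit, had a median of 4.88 CPM in α-cells and 0 in β-cells (log2 difference -6.34, SE 0.67, edgeR adjusted p = 1.56e-09) and no UMI in δ- and PP-cells. TRPM5, the cation channel at the end of the taste cascade, had medians of 0.125 CPM in α-cells and 11.4 in β-cells (6.59, SE 0.66, adjusted p = 3.99e-11). GNAT3 reached at most 0.815 CPM in β-cells, and TRPM5 at most 1.59 CPM in α-cells. Each of these genes entered the fit only through the type where it was high, so its p is no independent support. Their differences with no filter are not given here. ITPR3, an inositol trisphosphate receptor that releases calcium from the endoplasmic reticulum, was higher in β-cells by 3.42 (SE 0.54, adjusted p = 1.31e-06). While TAS1R3 was counted in all 4 types, GNAT3 had a median of 0 in every type but α-cells, and TRPM5 had a median of 0.125 CPM or less in every type but β-cells.

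The Gq arm, which shares ITPR3 with the taste list, had 16 tested genes, 3 higher and 4 lower in β-cells (median -0.12). Its inositol trisphosphate receptors differed in opposite directions. ITPR1 had 75.8 to 217 CPM in α-cells and 1.67 to 13.7 in β-cells (log2 difference -4.96, SE 0.33, edgeR adjusted p = 5.54e-18), and ITPR2 had 0.577 to 9.43 CPM in α-cells and 13.5 to 161 in β-cells (4.53, SE 0.42, adjusted p = 8.34e-13). Neither gene's ranges overlapped between the 2 types, and how many of all genes behaved so was not counted. PRKD1, a kinase downstream of diacylglycerol, fell by 3.68 in β-cells.

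**Figure D4:**
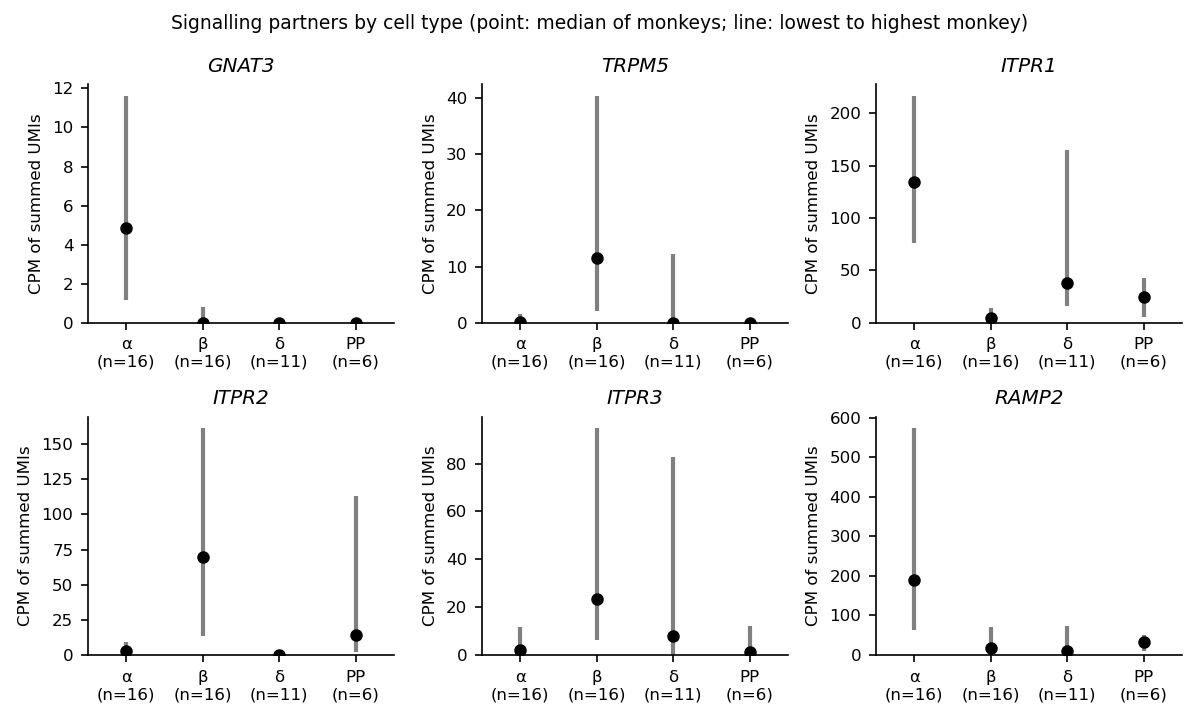
CPM (y axis) of 6 signalling partners in α-, β-, δ- and PP-cells (x axis), with the median of monkeys as a point and the lowest to highest monkey as a line. GNAT3, ITPR1 and RAMP2 have their highest medians in α-cells (4.88, 134 and 190 CPM), and TRPM5, ITPR2 and ITPR3 in β-cells (11.4, 70.0 and 23.5 CPM).

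Of the receptor accessory genes, 6 were tested, and 3 were lower in β-cells (median -0.81). RAMP2, a receptor activity modifying protein, had medians of 190 CPM in α-cells and 19.0 in β-cells (log2 difference -3.57, SE 0.27, edgeR adjusted p = 5.41e-16), and RAMP1, its relative, fell by 2.73. Related receptors had 4 tested genes and 2 lower (median -2.33), which were CD36, a fatty acid transporter and scavenger receptor that fell by 5.31, and GPBAR1, the bile acid receptor, which fell by 3.53. CD36 reached at most 0.676 CPM in β-cells, so it entered the fit only through the α-cells. Of 11 genes of the Gs and arrestin arm 2 were lower (median -0.23), where GRK6, a receptor kinase, fell by 1.18 and GNAS, the Gs α subunit, by 0.36.

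Of 13 genes of lipid ligand supply 1 was higher and 3 were lower in β-cells (median -0.53). MGLL, the monoacylglycerol lipase, fell by 2.24 and FABP5, a fatty acid binding protein, by 1.67, and ACSL3, an acyl-CoA synthetase, was higher by 1.37. Of 7 amino acid transporters 1 was higher and 2 were lower (median -0.78), where SLC7A5 fell by 3.14, SLC7A8 fell by 0.78 and SLC38A2 was higher by 1.66.

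Between δ- and α-cells, where the median over all genes was -0.47, the counts of higher and lower genes were 1 and 2 of 5 for taste transduction, 1 and 4 of 16 for the Gq arm, 0 and 2 of 4 for related receptors, 0 and 2 of 6 for accessory genes, 0 and 1 of 11 for the Gs and arrestin arm, 0 and 1 of 13 for lipid ligand supply and 1 and 5 of 7 for amino acid transport. The median of the amino acid transporters was -2.47. Over all genes tested between δ- and α-cells, 4.36% were called higher and 18.9% lower in δ-cells. Between PP- and α-cells the counts were 0 and 1 of 5, 1 and 1 of 16, 0 and 0 of 4, 0 and 1 of 6, 1 and 0 of 11, 1 and 1 of 13, and 0 and 2 of 7 in the same order of lists. Over all genes tested between PP- and α-cells, 1.77% were called higher and 4.82% lower in PP-cells. No gene of any of the 7 lists passed the test of age in any type.

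The genes most like each receptor were ranked by Pearson's r of log2 CPM over the 32 sums with at least 20 cells (16 of α-cells, 15 of β-cells and 1 of PP-cells), so that r mostly follows the difference of α- and β-cells and is a description. CASR was most like SEPT4 (r = 0.945), RXRG (0.944), a β-cell nuclear receptor, and HADH (0.938), a mitochondrial enzyme of fatty acid oxidation. GPR119 was most like HBEGF (0.855), SCN3B (0.846) and IDUA (0.844), and GPR142 was most like YIPF2 (0.838), ENSMFAG00000019454 (0.826) and MYBBP1A (0.805). For TAS1R3 they were CEP250 (0.761), NEURL1 (0.738) and UBE2D2 (0.730). For FFAR4 no δ-cell sum reached 20 cells, and ENSMFAG00000045474 (0.631), FOXA1 (0.628) and BCHE (0.574) were closest. Its level was at most 0.721 CPM in α-cells (52 UMIs in all) and 1.23 CPM in β-cells (7 UMIs), so these r rest on few counts.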

How the data were processed

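Islet cells of 16 monkeys were profiled in 64 libraries with a modified STRT method. The authors trimmed reads, aligned them with TopHat 2.0.12 to Macaca_fascicularis_5.0, assigned uniquely mapped reads to genes with htseq-count (strand setting not given in the sources used here), counted each UMI once, and deposited the counts per gene and cell without normalization. The 95 spike-in rows (5.41% of UMIs) were left out of levels and tests. No cell name was shared between libraries. Doublets were not called. Groups were taken from the submitters' list of individuals, and the 4 hormones, which define the types, were not tested.

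UMI counts were summed per monkey and type (at least 5 cells) and tested in R 4.3.3 with edgeR 4.0.16 (TMM, filterByExpr, quasi-likelihood test, threshold 0.05 after Benjamini-Hochberg adjustment over all genes tested). Age was tested with sex as a covariate, and types in 1 fit with the monkey as a block. In the fit of types, FFAR4 passed the filter only through δ-cells and GPR119 only through α-cells. The same holds for list genes that were low in all types but 1, such as GNAT3 and CD36 (α-cells) and TRPM5 (β-cells). Single values were compared by exact two-sided permutation over monkeys, shares by 95% Clopper-Pearson intervals (counting error only), and 0 counts by a floor of 3 counts. Python 3.11.15, numpy 2.4.6, scipy 1.17.1 and pandas 2.3.3 were used. The tests were tried on simulated counts first.

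The 6 receptors and the lists were chosen with earlier results of these data known. List genes were named if called by age in any type, and otherwise the 3 called genes of a list with the largest difference between β- and α-cells. The values of 1 such gene are not reported here. For each receptor that passed the filter between types, the 3 genes most correlated with it were named. Alternatives were DESeq2 1.42.0, its size factors in edgeR, no filter on low counts, cells thinned to 10000 UMIs, no cells above the 95th percentile of UMIs, over 2000 genes and 20000 UMIs, a hormone at least 4 times the next, no cells with at least 3 markers of a non-endocrine class at 50 CPM or more, at least 20 cells per sum (10 for δ- and PP-cells), no covariate, a replicate block, and each monkey left out. A hormone at least 2 times the next was chosen after seeing the data, as were the marker limits for non-endocrine cells and the alternatives of the interactions.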

Additional observations from a re-analysis of the deposited data

Results flagged for a closer look

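In 8 of 37 groups of 4 to 8 monkeys examined, 1 monkey stood apart from the others of its age group by Dixon's test at the 95% level, which chance alone gives in about 1 of 20 groups. All 8 are high values from few UMIs, and in 4 of them all other monkeys of the group were at 0, where any UMI stands apart and that rate does not apply. FFAR1 in β-cells of old male 4 was 4.24 CPM (7 UMIs in 22 cells), with the other old monkeys at 0 to 1.02. FFAR4 in β-cells was 1.23 CPM in old female 2 (6 UMIs in 69 cells) and 0.107 CPM in young male 4 (1 UMI in 106 cells), with all others of their groups at 0. FFAR4 in PP-cells of old female 2 was 0.667 CPM (1 UMI), with the other old monkeys at 0. GPR119 was 9.59 CPM in PP-cells of old male 2 (2 UMIs in 5 cells) and 1.17 CPM in β-cells of young male 4 (11 UMIs in 106 cells, others 0 to 0.477). GPR142 was 2.06 CPM in PP-cells of old female 1 (1 UMI in 8 cells) and 31.5 CPM in δ-cells of young female 2 (8 UMIs in 6 cells, others 0 to 2.36).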

How the results depend on the processing

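Of the tested values recomputed under all settings, 1358 kept their side of the threshold, 17 newly passed it, 3 no longer passed it and 0 were called in the opposite direction. With DESeq2 the number of receptors called was 1 by age in α-cells (TAS1R3), 1 between PP- and α-cells (GPR142, adjusted p = 0.0369) and 2 between PP- and β-cells (CASR and TAS1R3). Between β- and α-cells 1 receptor was called with thinned cells, where GPR119 did not pass the filter on low counts, and 4 with a hormone at least 4 times the next, which added TAS1R3 (log2 difference -1.29, adjusted p = 0.0356) and GPR142 (-2.21, 0.0139). With that hormone limit 0 receptors were called between δ- and α-cells (CASR 2.30, adjusted p = 0.0568; GPR119 -7.45, adjusted p = 0.370, a fitted value against 0 counts that is no bound) and 0 between δ- and β-cells. Fewer δ-cells were left (40 of 112), and FFAR4, at 17.5 CPM pooled in them from 33 UMIs, did not pass the filter on low counts and was not tested. Between PP- and α-cells 1 receptor was called without cells of non-endocrine markers. Between PP- and δ-cells 1 was called with at least 20 cells per sum, or 10 for δ- and PP-cells, where FFAR4 missed the threshold (-8.71, adjusted p = 0.0871). Leaving out 1 monkey gave 0 to 1 receptors between PP- and α-cells, the 1 without young female 2 (GPR142 adjusted p = 0.0459), and FFAR4 between β- and α-cells passed without old female 2 (-2.43, adjusted p = 0.0423). The number of all genes called between β- and α-cells moved as well. It was 3219 in the main setting, 2655 with thinned cells and 4914 with at least 20 cells per sum. The receptors called between types under another setting were not set against all genes called under it. The cause of these changes was not tested. TAS1R3 by age in α-cells had a log2 difference of 0.76 to 0.90 and an adjusted p of 0.255 to 0.744 when each monkey was left out.

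Without the monkey as a replicate block, 2 receptors were called between PP- and β-cells and 4 between PP- and δ-cells, TAS1R3 among both. Here too the receptors were not set against all genes called in that setting. For monkeys of the same number and sex, the correlations of their deviations ran from -0.0747 to 0.134 in 8 pairs each of α- and β-cell sums, with 1 over 0.1. The young monkey was most like the old one of its own number in 4 of 8 pairs for α-cells and 3 of 8 for β-cells. Whether such monkeys shared more than their number was not tested. With this number as a replicate block in the age tests, 0 receptors were called, and over all genes 3 were called in α-cells, 11 in β-cells and 1 in δ-cells, against 0, 5 and 0. For all genes called by age, DESeq2 gave 26 in α-, 41 in β-, 3 in δ- and 1 in PP-cells. With a hormone at least 4 times the next, too few monkeys kept 5 cells for the age tests in δ- and PP-cells and for the comparisons of PP-cells. Few PP-cells and the rarity of FFAR1, GPR119 and GPR142 UMIs limit what could be seen in the rare types.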

Other observations

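In the pairs of receptors given here, cells with a UMI of the first held the second in a larger share, and they were also deeper. Of the 2007 α-cells with a TAS1R3 UMI, 40.4% also had a CASR UMI, against 30.4% of the 2496 without, and the median depths were 74075 and 57833 UMIs. For GPR142 the shares were 15.1% and 11.6%, and for GPR119 they were 7.42% and 6.17%. In β-cells 46.6% of the 1010 cells with a CASR UMI had a TAS1R3 UMI, against 31.1% of the 209 without, at median depths of 80430 and 45936 UMIs. The part of depth in these differences was not tested.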
